A study of Mus musculus with 28 samples.

Results

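Open chromatin was compared between day 5 and day 10 of reprogramming in Tet2-deficient mouse fibroblasts that had received wild-type Tet2 (Tet2-WT). The comparison was chosen by its labels and holds 8 of the 28 ATAC-seq libraries of the series, 4 at each day. ATAC-seq marks accessible DNA by the cuts of a transposase, and a peak is a stretch where cut fragments pile up above the local background. The 366937 peaks of these 8 libraries on chromosomes 1 to 19 and X were merged wherever they overlapped by at least 1 bp, which gave 99847 regions. A library called a region where it had a peak in it.

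Both groups were primary fibroblasts of Tet2-/- genotype from embryos of embryonic day 12.5, of the strain V6.5 129XBI/6. They carried inducible reprogramming factors (OKSM) with the activator rtTA, so the controls and all vector groups lacked endogenous Tet2. The returned Tet2-WT came from a pMXs retrovirus made in PLAT-E packaging cells. Neither the promoter nor the copy number of the vector is given in the sources used here. Cells reprogrammed on Mito-C feeders in LIF medium at 5% oxygen, with doxycycline at 2 µg/mL, the MEK inhibitor PD0325901 at 1 µM and the GSK3 inhibitor CHIR99021 at 3 µM, and were sorted on SSEA1-RFP before 75000 cells entered each library. The other groups used below, of 4 libraries each, were cells with an empty pMXs vector or with the mutant Tet2-E at day 5 and day 10, treated and sorted likewise. The MEF group (day 0) was untreated fibroblasts with no sorting named. Whether replicates came from different cultures or animals is not stated, so each p-value reflects the spread among libraries, which may be technical.

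As background, reprogramming first closes enhancers of the fibroblast programme and later opens those of the pluripotency network. SSEA1 is a carbohydrate surface antigen that marks cells on the way to pluripotency. TET2 oxidises 5-methylcytosine, a step in the removal of DNA methylation from enhancers and promoters. MEK and GSK3 inhibition, given with LIF, hold cells in a naive pluripotent state.

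The day 5 libraries were deeper than the day 10 libraries. The commonest background pileup of a library, the number of fragments stacked at an ordinary position, served as its relative depth. It was 1.04, 0.911, 0.86 and 0.844 in day 5 replicates 1 to 4 and 0.619, 0.587, 0.532 and 0.395 in day 10 replicates 1 to 4. The groups did not overlap, with means of 0.913 ± 0.0875 and 0.533 ± 0.0989 (SD, n = 4 each; exact permutation p = 0.0286, the smallest that 4 against 4 can give, adjusted p = 0.0667 over 7 measures). Depth and day therefore cannot be told apart from the groups alone. The day 5 lists held 48936, 47570, 55930 and 56121 peaks, and the day 10 lists held 40669, 50552, 36365 and 30794. Day 10 replicate 2 reached the day 5 range, so the groups overlapped (52139 ± 4523 against 39595 ± 8349, SD, n = 4 each; exact permutation p = 0.0857, adjusted p = 0.12). The peaks covered 10.1 to 11.6 Mb at day 5 and 5.31 to 10.1 Mb at day 10, a difference of −3.32 Mb (exact permutation p = 0.0286, adjusted p = 0.0667) that was −1.42 Mb in lists scaled to the lowest depth (exact permutation p = 0.257, adjusted p = 0.386). Median peak widths overlapped, at 157 to 186 bp and 135 to 169 bp, a difference of −14.5 bp (exact permutation p = 0.171, adjusted p = 0.2) that was −56.8 bp in scaled lists (exact permutation p = 0.0286, adjusted p = 0.0857). Scaling dropped weak peaks, mostly from day 5 lists, and left the others at their full-depth widths. Scaled lengths and widths, and overlaps of covered sequence, are therefore not those of libraries of like depth. Whether the larger difference in width came from the dropped peaks was not tested.

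**Figure D1:**
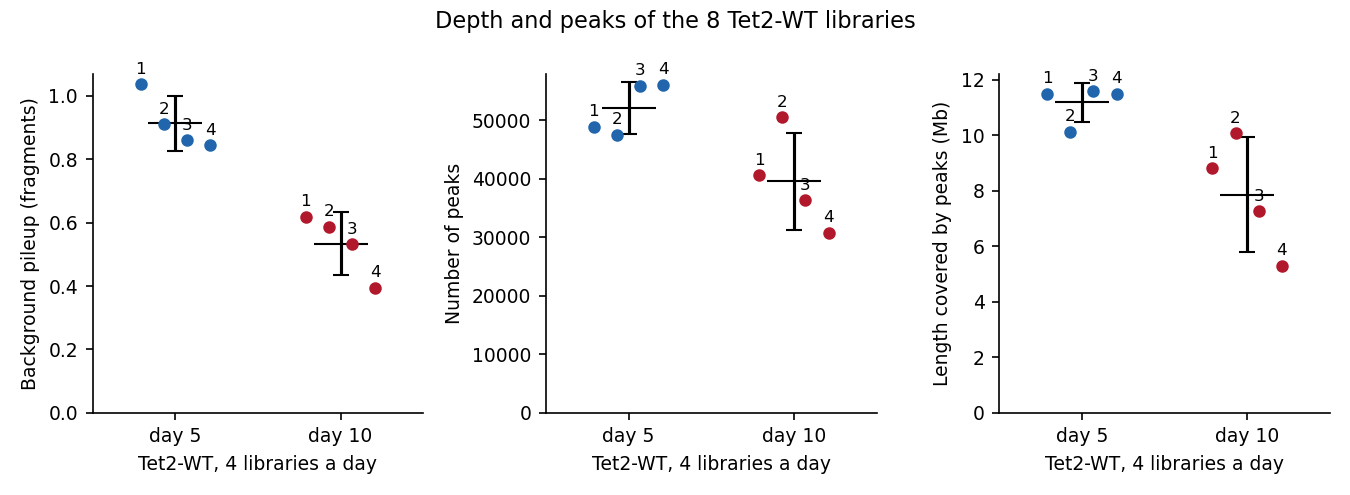
Relative depth (background pileup in fragments), number of peaks and length covered by peaks (Mb) of the 8 Tet2-WT libraries. Points are libraries numbered by replicate, and bars give the mean and SD of 4 libraries. The depth of the day 10 libraries lies below that of every day 5 library, while day 10 replicate 2 reaches the day 5 range in peaks.

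Day 10 replicates 2 and 4 stood at opposite ends of their group. Replicate 2 had the longest day 10 list, and 8288 of its regions (17.5%) were called by no other Tet2-WT library. Replicate 4 had the shortest list and the lowest depth, and 1465 of its regions (5.31%) were called by it alone. The overlap of covered sequence within and between days was measured by the Jaccard index. This index, shared bases over bases covered by either library, averaged 0.481 within day 5, 0.402 within day 10 and 0.39 between days. Within exceeded between by 0.0518 (one-sided exact permutation p = 0.0286, adjusted p = 0.0667). In lists scaled to the lowest depth, as described below, the means were 0.504, 0.408 and 0.414, so that the day 10 libraries overlapped each other slightly less than they overlapped the day 5 libraries (within minus between 0.0422, one-sided exact permutation p = 0.0286, adjusted p = 0.0857).

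The comparison asks which regions opened or closed during the second stage of reprogramming with wild-type Tet2 present. Far more regions went from called to not called than the reverse. The 60746 regions with calls from 2 or more of the 8 libraries were tested. Of these, 1376 (2.27%) had 4 calls from the 4 day 5 libraries and none from the 4 day 10 libraries, and are referred to as complete losses. The reverse, no day 5 call and 4 day 10 calls, held for 174 (0.286%), the complete gains. Losses made up 88.8% of these 1550 complete changes. A core of 15147 regions (24.9% of those tested) was called in all 8 libraries. These constant regions were wide, with a median of 501 bp against 279 bp for complete gains, 274.5 bp for complete losses and 261 bp for all tested regions. Because the samples are bulk, fewer cells with an open region and less open chromatin per cell cannot be told apart.

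No region passed Fisher's exact test after Benjamini-Hochberg adjustment (0% of those tested; smallest adjusted p = 1). The 1550 complete changes all had an unadjusted exact p of 0.0286, the smallest possible with 4 against 4, so the design could not call any single region. Besides the complete changes, 2142 regions fell from 4 day 5 libraries to 1 day 10 library and 2585 went from 3 to 0. In the other direction, 608 went from 0 to 3 and 224 from 1 to 4. Each such region had an unadjusted exact p of 0.143. Counting any difference, 28431 tested regions had more day 5 libraries, 8123 had more day 10 libraries and 24192 had equal numbers.

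**Figure D2:**
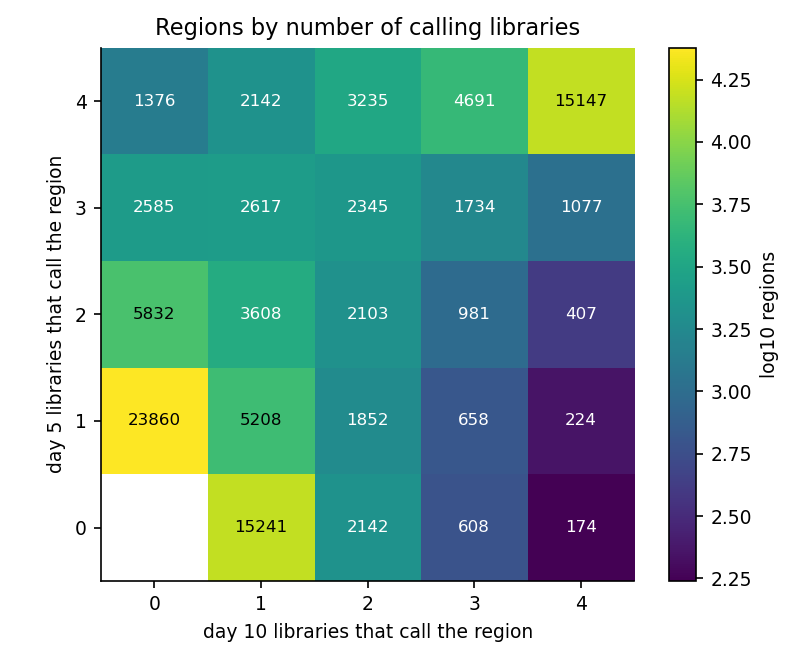
Number of Tet2-WT regions by how many of the 4 day 5 libraries (vertical axis) and of the 4 day 10 libraries (horizontal axis) called them, coloured on a log10 scale. The upper left corner holds the 1376 complete losses, the lower right corner the 174 complete gains and the upper right corner the 15147 constant regions.

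Single day 10 libraries set how close many regions came to a complete change. Of the 608 regions called in no day 5 library and 3 day 10 libraries, the missing library was day 10 replicate 4 in 344 (56.6%) and replicate 2 in 27 (4.44%). Of the 2142 regions called in 4 day 5 libraries and 1 day 10 library, the calling library was replicate 2 in 779 (36.4%) and replicate 4 in 233 (10.9%). Without day 10 replicate 4 there were 518 complete gains and 1611 complete losses. Without replicate 3 there were 332 gains and 1822 losses, without replicate 2 there were 193 and 2154, and without replicate 1 there were 255 and 2067. Leaving out a library also loosens the demand, since 3 calls then suffice. Without day 5 replicate 2 the complete losses numbered 2253.

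The excess of losses was much smaller when the lists were brought to a like depth or length. For the first, each peak's summit pileup and background were scaled to the lowest depth, 0.395, and peaks still as significant as the weakest peak of that shallowest list were kept. The scaled lists held 361 complete gains and 395 complete losses among 50233 tested regions, a lost share of 52.2%. Lists of equal length, the 30794 strongest peaks of each library, gave 315 gains and 435 losses, a lost share of 58.0%. The scaling reads only the summit and not the minimum width that a call needs, so it may keep weak day 5 peaks that would be too narrow to be called at that depth. The scaled split also turned on a single library: without day 10 replicate 4 the scaled lists held 909 gains and 496 losses, a lost share of 35.3%.

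Gains and losses differed in how many of them kept their calls in the scaled lists. Of the 174 complete gains, 164 (94.3%) were still called in all 4 day 10 libraries, whose lists lost few peaks by scaling. Of the 1376 complete losses, 360 (26.2%) were still called in all 4 day 5 libraries, whose lists kept 61.9% to 73.4% of their peaks. The scaled gains were mostly not the unscaled ones: 164 of 361 had no day 5 call in the full lists, 108 had 1 and 8 had 4. Of the 395 scaled losses, 362 (91.6%) had no day 10 call in the full lists. The shortened lists were the scaled lists, those of equal length and those held to a −log10 q of at least 5. In all 3 of them, 52 gains (29.9%) and 195 losses (14.2%) kept 4 of 4 calls on their own day. Such lists drop weaker peaks and can only remove calls. The share of all regions with 4 of 4 calls on a day that kept them in these lists was not counted.

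**Figure D3:**
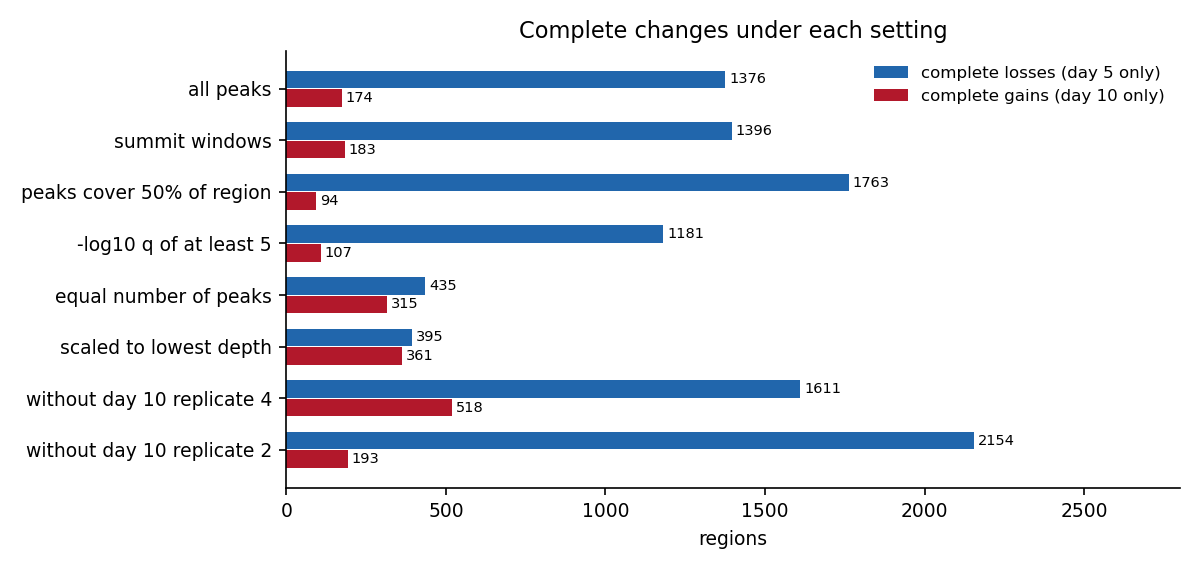
Complete losses (blue) and complete gains (red) between day 5 and day 10 in Tet2-WT libraries under 8 ways of defining peaks, regions or libraries; bars start at 0 and numbers give regions. Losses exceed gains in each of these 8 settings, by 1376 to 174 with all peaks and by 395 to 361 after scaling to the lowest depth.

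The 10 complete gains with the highest fold were narrow regions, 237 to 422 bp wide. The fold of a peak, as the authors deposited it, divides the summit pileup plus 1 by the local background plus 1, and it describes and ranks regions here. It was not compared between the days, since it depends on depth. The highest was chr2:128091154-128091575 (mm9), which had folds of 11.0, 12.02, 12.1 and 7.58 in day 10 replicates 1 to 4 from summit pileups of 24, 29, 25 and 12 fragments. No day 5 library with Tet2-WT and no MEF library called it. Among the libraries with other vectors, which had no part in choosing it, 1 of 8 at day 5 and 8 of 8 at day 10 called it.

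Of the other leading gains, 4 had the same pattern in the other vectors' libraries, called by all 8 at day 10. The region chr2:156273166-156273514 had folds of 10.1, 11.2, 10.5 and 7.35 and was called by 1 of 8 of the other day 5 libraries. The region chr14:79927561-79927880 had folds of 9.68, 10.3, 10.4 and 8.53 and was likewise called by 1 of 8. The regions chr1:7661790-7662172 and chr11:69672197-69672494 had median folds of 9.97 and 9.81 and were called by 1 and 2 of those 8 libraries. None of these regions was called in a MEF library.

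Other leading gains were called less regularly outside the Tet2-WT libraries. The region chr7:4165123-4165359 had folds of 6.79, 9.43, 10.2 and 9.32 at day 10 with Tet2-WT, yet only 2 of 8 other day 10 libraries and 0 of 8 other day 5 libraries called it. The region chr5:88201256-88201603 had folds of 6.79, 10.8, 5.22 and 10.6 and was called by 3 of 8 other day 10 and 2 of 8 other day 5 libraries. The region chr2:174935588-174935892, with a median fold of 8.91, was called by 4 and 2 of them. Whether Tet2-WT differed from the other vectors at these single regions was not tested. The region chr4:104887137-104887462, with folds of 8.13 to 9.51, was called by 7 of 8 other day 10 libraries.

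A reopening pattern was seen at chr8:125060928-125061208, the remaining leading gain. All 4 MEF libraries called it, no Tet2-WT day 5 library did, and the 4 Tet2-WT day 10 libraries had folds of 13.9, 8.67, 8.51 and 6.34. The other vectors' libraries followed the same order, with 1 of 8 at day 5 and 7 of 8 at day 10.

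The leading complete loss differed from the rest in the other libraries. The region chr1:90422796-90423118 had folds of 11.7, 6.28, 10.5 and 13.3 in day 5 replicates 1 to 4 and no peak in any Tet2-WT day 10 library, where the nearest peaks lay 7492 to 43220 bp away. It was nevertheless called by 4 of 4 MEF libraries and by 16 of 16 libraries with the other vectors, at day 5 and day 10. Of the 1376 losses only 1 other was called in all 16, chr4:122789599-122789822, with day 5 folds of 7.03, 9.83, 6.44 and 7.09 and 0 MEF calls. Both were singled out after their values were seen, and they made up 0.145% of the losses. Among all tested regions, 11526 of 60746 (18.97%) were called in all 16 libraries, and 10642 of those were constant regions.

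The other leading losses were called by most of the other vectors' day 5 libraries and fewer of their day 10 libraries. The region chr7:94335282-94335628 had folds of 6.87, 8.89, 12.1 and 10.3 and was called by 8 of 8 of those libraries at day 5 and 0 of 8 at day 10, which makes it a complete loss with every vector. The region chr14:102336188-102336451 had folds of 10.3, 9.80, 6.96 and 9.81 and was called by 7 of 8 and 0 of 8. It was called in 1 MEF library, while the remaining 8 of these 10 losses, apart from the leading one, were called in 0 of 4.

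Further leading losses showed the same order with some day 10 calls left. The region chr2:53349604-53350098, with folds of 8.60 to 9.92, was called by 8 and 2 of the 8 other libraries at each day. The regions chr4:75040548-75040791 and chr1:24439979-24440352, with median folds of 9.99 and 9.45, were each called by 7 and 1. The regions chr5:5673317-5673715 and chrX:153807663-153807930, with median folds of 9.72 and 9.60, were called by 8 and 3 and by 6 and 2. Calls remained most frequent at chr14:106665927-106666465 and chr1:89183669-89183963, with median folds of 9.86 and 9.56, which 5 and 4 of the 8 other day 10 libraries called against 8 and 7 at day 5. After scaling to the lowest depth, 19 of these 20 leading regions kept 4 of 4 calls on one day and none on the other. The exception was chr4:75040548-75040791. This lends the named regions no weight, since they were picked by the fold that enters the scaling, and scaling can only remove calls. Over all complete changes, 94.3% of gains and 26.2% of losses kept 4 of 4 calls.

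The median complete change ranked below the middle of its list by strength in every library except day 10 replicate 2. The median rank of the losses ran from percentile 39.1 to 48.9 of the day 5 lists by −log10 p, and that of the gains from 34.1 to 61.3 of the day 10 lists. Constant regions ranked at 71.6 to 84.5. The median summit of the gains was 9 to 13 fragments high in the 4 day 10 libraries, and that of the losses 12 or 13 fragments in the 4 deeper day 5 libraries.

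The MEF libraries place these changes in the longer course of reprogramming. Most complete gains were at places not called in fibroblasts: 157 of 174 (90.2%) had no MEF call and 3 had calls from all 4 MEF libraries. Most complete losses were also absent from fibroblasts. Of the 1376, 855 (62.1%) were called in 0 MEF libraries, 260 (18.9%) in 1 to 3 and 261 (18.97%) in all 4, against 47.3% in 0 and 27.9% in all 4 for all tested regions. Depth moves with this too, since the MEF libraries had background pileups of 0.394 to 0.66, below every Tet2-WT day 5 library. With every list scaled to the lowest depth, no MEF call was found for 83.1% of the 361 gains, 66.3% of the 395 losses and 45.4% of the 50233 tested regions, and 4 MEF calls for 4.16%, 18.5% and 30.8% of them.

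Regions shared with fibroblasts were kept more often than regions first called at day 5. Of 12424 regions called in 4 of 4 Tet2-WT day 5 and 4 of 4 MEF libraries, 75.1% were called in all 4 day 10 libraries and 2.10% in none. Of 9459 regions called in 4 of 4 day 5 and 0 MEF libraries, 40.6% were called in all 4 and 9.04% in none. Of the 4708 regions with 1 to 3 MEF calls, 41.9% and 5.52% did so. The order held in the scaled lists, where 0.712%, 4.31% and 2.34% of these classes, in the same sequence, had no day 10 call. Seen from day 10, 3.22% of the 4870 regions in 4 of 4 day 10 and 0 MEF libraries had no day 5 call, against 0.0311% of the 9633 regions also called in 4 MEF libraries. These are shares of regions, which are not replicates, and carry no test. The classes were not matched for width or strength. Regions in 4 MEF libraries had a median width of 403 bp, against 243 bp for those in 0, among all tested regions. The widths were 552 and 455 bp among constant regions and 273 and 287 bp among complete losses. Whether width or strength accounts for the order was not tested.

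**Figure D4:**
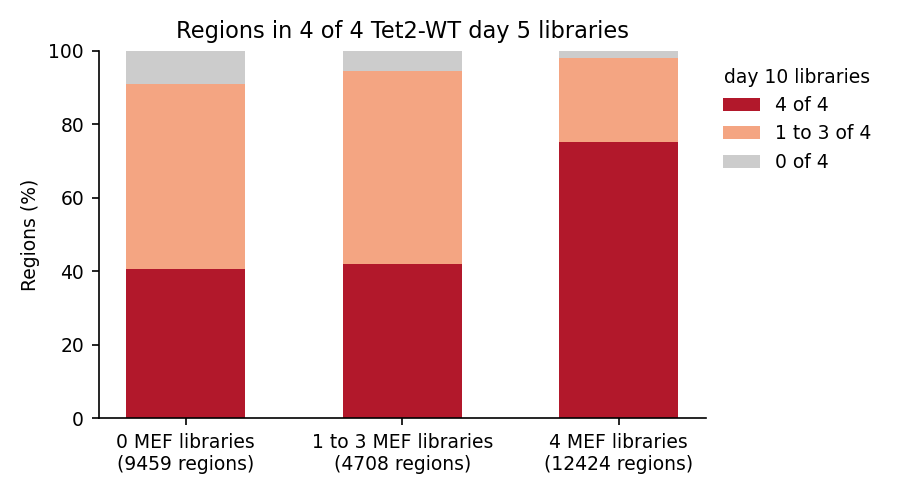
Share (%) of the regions called in 4 of 4 Tet2-WT day 5 libraries that were called in 4, in 1 to 3 or in 0 of the 4 day 10 libraries, by the number of MEF libraries that called them. Regions in 4 MEF libraries kept 4 day 10 calls in 75.1% of cases, against 40.6% for regions in 0 MEF libraries.

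The regions chosen in Tet2-WT libraries changed in the same direction in libraries with the other vectors. With the empty vector, the 4 day 5 libraries called 8.62%, 13.8%, 18.4% and 9.20% of the 174 complete gains, and the 4 day 10 libraries called 64.9%, 62.1%, 63.2% and 39.7%. With Tet2-E, the shares were 13.2%, 25.9%, 12.6% and 5.75% at day 5 and 80.5%, 79.3%, 47.1% and 48.3% at day 10. The days did not overlap with either vector. The means rose from 12.5% ± 4.56 to 57.5% ± 11.9 with the empty vector and from 14.4% ± 8.38 to 63.8% ± 18.6 with Tet2-E (SD, n = 4; exact permutation p = 0.0286 each, adjusted p = 0.0286 over 4 tests). The rise ran against that of all tested regions, whose called share was 62.2% at day 5 and 48.0% at day 10 with the empty vector, and 62.0% and 48.8% with Tet2-E. The 2 Tet2-E day 10 libraries with the highest shares were also the deepest of their group, with background pileups of 0.768 and 0.636 against 0.466 and 0.361. MEF libraries called 5.17% ± 1.69 of the gains, against 40.2% ± 5.22 of all tested regions (SD, n = 4).

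The complete losses fell in the other vectors as well. The called share of the 1376 losses fell from 69.3% ± 11.8 to 21.3% ± 4.55 with the empty vector and from 68.7% ± 7.37 to 22.3% ± 9.66 with Tet2-E (SD, n = 4; exact permutation p = 0.0286 each, adjusted p = 0.0286). That is a larger fall than for all tested regions, which were not matched to the losses for strength. Depth fell between the days with these vectors too. Mean background pileups were 0.82 at day 5 and 0.476 at day 10 with the empty vector, and 0.86 and 0.558 with Tet2-E. MEF libraries called 28.6% ± 4.11 of the losses, against 40.2% ± 5.22 of all tested regions (SD, n = 4). Region by region, 155 of 174 gains (89.1%) were called by more of the other vectors' libraries at day 10 and 12 by more at day 5. Of the losses, 1282 (93.2%) were called by more at day 5 and 33 by more at day 10. Among all tested regions the shares were 15.0% with more day 10 and 53.5% with more day 5 libraries. No gain or loss had the opposite difference by 4 or more of the 8 other libraries. How many of all tested regions differed by 4 or more libraries in either direction was not counted. With every list scaled to the lowest depth, the gains rose from 16.3% to 60.7% with the empty vector and from 18.5% to 63.3% with Tet2-E, and the losses fell from 67.5% to 25.7% and from 68.8% to 25.4% (exact permutation p = 0.0286 each, adjusted p = 0.0286).

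**Figure D5:**
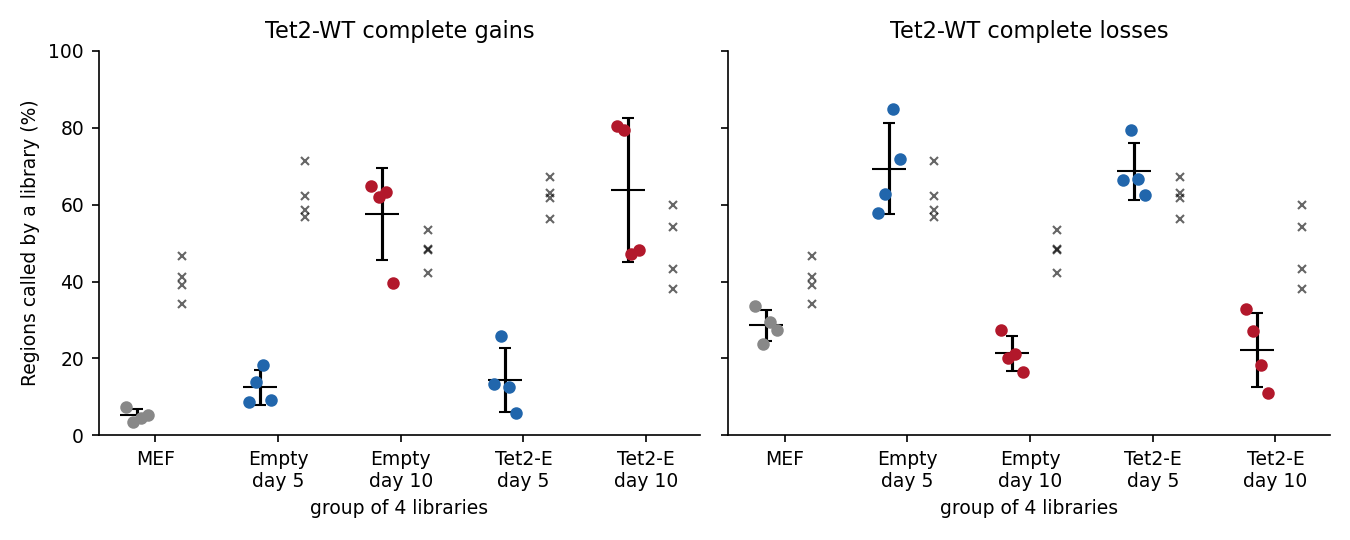
Share (%) of the 174 complete gains (left) and 1376 complete losses (right) of Tet2-WT called by each library of the other groups; coloured points are libraries, bars the mean and SD of 4, and crosses the share of all tested regions called by the same libraries. At day 10 the gains lie at 39.7% or more and at day 5 at 25.9% or less, and the losses show the reverse order.

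Some regions met the strict rule with every vector. Of the Tet2-WT complete changes, 9 gains (5.17%) and 18 losses (1.31%) were complete with the empty vector and with Tet2-E. Among all 60746 tested regions, 15 (0.0247%) were complete gains and 98 (0.161%) complete losses in both of those vectors. At the other end, 17 gains were called by at most 1 of the 8 other day 10 libraries, and 1 gain, chr8:4147442-4147663, was called by none of the 16 other libraries of either day. Of all tested regions 2120 (3.49%) had no such call, against 0.575% of the gains. At chr8:4147442-4147663 the folds of 6.09, 7.12, 4.51 and 5.02 came from summits of 9, 12, 6 and 6 fragments. A further 27 losses were called by at least 6 of the 8 other day 10 libraries. The other day 10 libraries called on average 48.0% (empty vector) and 48.8% (Tet2-E) of all tested regions. How many of all tested regions met the cut-offs behind the 17 gains and the 27 losses was not counted.

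Sets fixed in the other vectors alone were then read in the Tet2-WT libraries. The 16 regions with no call from the 8 day 5 libraries and a call from each of the 8 day 10 libraries of the empty vector and Tet2-E were called at 6.25%, 6.25%, 0% and 6.25% in Tet2-WT day 5 replicates and at 100%, 87.5%, 87.5% and 81.2% in day 10 replicates. The 94 regions with the reverse pattern fell from 87.2% ± 2.61 to 23.7% ± 7.23. The 27912 regions in 4 of 4 MEF libraries fell from 55.9% ± 3.50 to 45.5% ± 3.87 (SD, n = 4; exact permutation p = 0.0286 for each of the 3 sets, adjusted p = 0.0381 over 4 sets). Across all tested regions the Tet2-WT share also fell, from 70.5% ± 3.21 at day 5 to 53.9% ± 9.13 at day 10 (SD, n = 4). Those regions were chosen in the Tet2-WT libraries themselves. Whether the MEF set fell more or less than other regions was not tested. After scaling to the lowest depth none of the 3 sets passed after adjustment. The late-gain set, then 36 regions, stood at 9.03% and 90.3% and the late-loss set, then 38 regions, at 78.9% and 20.4% (exact permutation p = 0.0286, adjusted p = 0.0571 each). Their unadjusted p was still the smallest possible with 4 against 4. Their adjusted p rose because the MEF set no longer reached that p. The MEF set stood at 48.8% and 45.4% (exact permutation p = 0.229, adjusted p = 0.229). The 2720 regions absent from MEFs and called in 8 of 8 other day 10 libraries were called at 95.8% ± 1.34 in Tet2-WT day 5 libraries and at 95.9% ± 3.57 at day 10 (exact permutation p = 0.971, adjusted p = 0.971). With shares this near 100%, and with deeper day 5 libraries, a rise had little room to show. With equal numbers of peaks the corresponding set rose from 90.6% to 95.1% and passed (exact permutation p = 0.0286, adjusted p = 0.0286), and with scaled lists it stood at 91.9% and 95.8% (exact permutation p = 0.114).

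In 6 values per library, no difference between vectors in the change from day 5 to day 10 was detected. With each vector's 8 libraries merged alone, the empty vector gave 112 complete gains (0.196% of 57033 tested regions) and 1031 losses (1.81%), and Tet2-E gave 100 gains (0.176% of 56663) and 875 losses (1.54%). The lost shares were 88.8% with Tet2-WT, 90.2% with the empty vector and 89.7% with Tet2-E. After scaling they were 52.2%, 62.1% and 67.4%. The scaled gains numbered 361 with Tet2-WT (0.719% of tested regions), 215 with the empty vector (0.440%) and 197 with Tet2-E (0.412%). The scaled losses numbered 395 (0.786%), 352 (0.721%) and 408 (0.854%) in the same order. Counts of complete changes were not compared between vectors by a test. The change from day 5 to day 10 in 6 values per library was compared between Tet2-WT and each other vector by exact permutation of vector labels within days. The 12 exact permutation tests had p-values of 0.502 or more (adjusted p = 0.992 each), with the change in peaks at −12544 for Tet2-WT, −12604 for the empty vector and −11378 for Tet2-E. A p that misses the threshold does not show that the vectors acted alike.

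The strict sets of the vectors overlapped in part. Of the 174 Tet2-WT gains, 16.7% overlapped a gain of the empty vector (25.9% of its 112) and 12.1% a gain of Tet2-E (21.0% of its 100). Of the 1376 losses, 10.6% overlapped a loss of the empty vector (14.2% of its own) and 8.58% a loss of Tet2-E (13.5%). To be shared, a region had to change completely in 8 libraries of each vector. For scale, complete gains made up 0.196% of the tested regions of the empty vector and 0.176% of those of Tet2-E. Complete losses made up 1.81% and 1.54% of them.

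The changes were spread over the genome. Per chromosome, complete gains made up 0.124% (chromosome 15) to 0.614% (chromosome 19) of tested regions and complete losses 1.71% (chromosome 11) to 3.20% (chromosome 3). Chromosome X held 2 gains and 30 losses among 1360 regions. Another complete gain lay within 50 kb of 2.30% of the gains, against 1.23% of all tested regions. Another complete loss lay within 50 kb of 7.34% of the losses, against 8.22% of all tested regions. The densest 1 Mb stretch for gains, from 4000001 to 5000000 on chromosome 7, held 3 gains among 70 tested regions and includes the leading gain at 4165123. For losses the densest stretches held 5 each, on chromosomes 2, 6, 8 and 10. No test was made of these positions.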

How the data were processed

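The authors deposited 1 MACS2 peak list per library, with a fold, −log10 p, −log10 q, a score and a summit per peak. The fold is a ratio, the deposited score is 10 times the deposited −log10 q, and both depend on the depth of their list, so they rank or describe regions and were not compared between groups. The submitters' processing notes name Bowtie2, SAMtools, bedtools, MACS2 and build mm9, without versions or settings.

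Summit pileup and background were recovered from fold and p under the caller's Poisson model, as whole pileups for 100% of peaks (tolerance 0.0002 in −log10 p). The commonest background served as relative depth, which is not a read count and depends on the fragment length set. No lists were identical.

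Peaks were merged and counted in Python (numpy, scipy, pandas). Regions in at least 2 of 8 libraries were tested by 2-sided Fisher's exact test. Per-library values went into exact permutation tests, 2-sided except for the Jaccard index (one-sided). All were Benjamini-Hochberg adjusted, with a threshold of 0.05. The scripts were tested on simulated data. The 10 complete gains and losses with the highest median fold were named. The members and lists were chosen with earlier results of these data known.

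No mm9 genome or annotation was used, so genes, cell type markers, motifs and sequences are not analysed here. The 1353 peaks outside chromosomes 1 to 19 and X were left out of the regions.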

Additional observations from a re-analysis of the deposited data

Results flagged for a closer look

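Among 30 groups of 4 values tested for an extreme library, 3 held one, and chance gives about 1 in 20. Tet2-WT day 5 replicate 2 had the shortest covered length of its group, 10.1 Mb against 11.5 to 11.6 Mb in the others. Tet2-WT day 5 replicate 3 called 0% of the 16 regions that the other vectors called only at day 10, where the other 3 each called 6.25%, which is 1 region. Empty vector day 10 replicate 4 called 39.7% of the Tet2-WT complete gains, below the 62.1% to 64.9% of its group, and its background pileup of 0.42 was the lowest of the 4. Its part in that share was not tested. Peaks on sequences outside chromosomes 1 to 19 and X, used in no comparison, numbered 193 and 206 in Tet2-WT day 5 replicates 2 and 3, above the 105 to 192 of the MEF libraries. Day 5 libraries of the other vectors reached like numbers, with 207 in empty vector replicate 3 and 195 and 194 in Tet2-E replicates 2 and 3.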

How the results depend on the processing

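Counts of complete changes depended on the lists. Gains and losses were 94 and 1763 (lost share 94.9%) where peaks had to cover 50% of a region, 315 and 435 (58.0%) with equal numbers of peaks, 107 and 1181 (91.7%) at a −log10 q of at least 5, 361 and 395 (52.2%) after scaling to the lowest depth, and 183 and 1396 with summit windows. Leaving out 1 library or 1 replicate number of both days gave 193 to 674 gains, 1611 to 3332 losses and lost shares of 75.7% to 92.8%. Added after the data were seen, scaled lists without day 10 replicate 2 gave 420 and 676 (61.7%), and without replicate 4 gave 909 and 496 (35.3%). Filters of 1 or 4 libraries changed no complete count.

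Differences between days, day 10 minus day 5, moved as follows. With equal numbers of peaks, covered length was −1.57 Mb, median width −55 bp, the share of regions that all lists call 1.22 points and the Jaccard difference 0.0469 (exact permutation, adjusted p = 0.0357 each), and the share of peaks overlapping a MEF peak turned to −1.92 points. At a −log10 q of at least 5, peaks were −10433, covered length −3.02 Mb, the all-list share 12.5 points and the Jaccard difference 0.0576 (exact permutation, adjusted p = 0.0429 each). After scaling, covered length was −1.42 Mb and median width −56.8 bp, and 3 directions turned: peaks were 1927, the MEF overlap −3.07 points and the all-list share −0.0309 points. In each of these shortened lists the kept peaks retained their full-depth widths. Leaving out each library in turn gave −16197 to −9611 peaks, −4.05 to −2.46 Mb covered, −19.8 to −8.33 bp of median width, −0.408 to −0.334 in background pileup, −0.505 to 3.63 points of MEF overlap, 9.005 to 15.9 points of the all-list share and a Jaccard difference of 0.0365 to 0.0723. Without day 10 replicate 2 the 5 differences in peaks, covered length, background pileup, all-list share and Jaccard index passed (exact permutation, adjusted p = 0.04 each).

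For the 4 sets fixed in other libraries, the fourth, absent from MEFs, rose by 4.53 points with equal numbers of peaks and passed (exact permutation, adjusted p = 0.0286). Without each library in turn, the 4 sets differed by 80.7 to 87.0, −66.0 to −60.3, −11.7 to −8.96 and −0.689 to 1.87 points. Without day 5 replicate 3 the first 3 no longer passed (exact permutation, adjusted p = 0.0571, 0.0571 and 0.0762). Scaled, the first 3 differed by 81.2, −58.6 and −3.40 points and did not pass (exact permutation, adjusted p = 0.0571, 0.0571 and 0.229). In each of these settings the unadjusted exact permutation p of the late-gain and late-loss sets stayed at 0.0286, the smallest possible.

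Same-numbered libraries did not deviate together between the Tet2-WT days (correlations of region calls −0.00725 to 0.00298). Between vectors of 1 day the 24 same-numbered correlations were −0.0107 to 0.0701. None was above the 0.1 required, so the numbers were not taken to pair libraries. At day 10 all same-numbered correlations were positive, at 0.00682 to 0.0701, while the others ran from −0.0586 to 0.0376. In each pair of vectors, 3 day 10 libraries correlated best with their own number, against 1 or 2 at day 5. Same-numbered day 10 libraries of different vectors were therefore not shown to be independent. What these weak correlations reflect was not tested. With a replicate block, counts stay at 174 and 1376 by construction and the smallest p is 0.125. The block values were 84.4, −63.6 and −10.4 points for the first 3 sets (exact sign-flip p = 0.125, adjusted p = 0.167) and 45.0, 49.4, −48.0 and −46.4 points for gains and losses in the empty vector and Tet2-E (exact sign-flip p = 0.125). For the 12 differences between vectors, swapping labels only within same-numbered pairs gave a lowest exact p of 0.312 (adjusted p = 0.992).

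Of the differences between vectors, scaling turned the sign of 5, none of which passed: against Tet2-E, peaks 4015, covered length 0.299 Mb and the MEF set 0.249 points; against the empty vector, width −3 bp and the MEF set 0.906 points (exact permutation, adjusted p = 0.94 each). The gene-locus and motif alternatives were not run, for want of an mm9 genome. The shallowest library, at a background pileup of 0.395, limits which day 10 peaks could be seen.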
